A study of Mus musculus with 8 samples.

Results

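The genes described here encode the subunits of oxidative phosphorylation. They were taken by symbol: protein-coding genes of the deposited matrix whose symbol starts with mt-, Ndufa, Ndufb, Ndufc, Ndufs, Ndufv, Uqcr, Cox4 to Cox8 or Atp5, or is Sdha, Sdhb, Sdhc or Sdhd, without the complex I assembly factors named Ndufaf, Ndufa4l2 and Cox8b. The symbols matched 97 of 54446 genes, 84 of them nuclear and 13 on mitochondrial DNA (mtDNA). At least 10 counts in 4 libraries were found for 90 of the 97 (80 nuclear, 10 mtDNA), and all 90 were among the 17395 genes tested. None of the 90 had reached 10 counts only through 1 genotype. The rule takes in Cox7a2l, a factor of respiratory supercomplexes, and Atp5s, which is not a structural subunit of ATP synthase, and Ndufa4 was placed in complex IV.

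Oxidative phosphorylation turns the electrons of NADH and succinate into ATP in the inner mitochondrial membrane. Complexes I, III and IV pump protons as electrons pass to oxygen, complex II feeds electrons in from succinate without pumping, and complex V (ATP synthase) uses the gradient to make ATP. Complexes I, III, IV and V are built from subunits of both genomes, and complex II is wholly nuclear. Neurons depend on this system to restore the ion gradients that action potentials and synaptic currents run down. The mtDNA genes are transcribed as long polycistronic RNAs by a dedicated polymerase and are cut apart afterwards, while each nuclear subunit gene has its own promoter.

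The study compared mice homozygous for a gene trap in Scn2a (HOM, Scn2agt/gt), which codes for the voltage-gated sodium channel NaV1.2, with wild-type (WT) littermates from heterozygous breeding pairs. The 4 WT and 4 HOM libraries, here WT1 to WT4 and HOM1 to HOM4 after their labels, share the strain label C75BL6 and the source label neuron, and were made from total RNA with a stranded paired-end kit. Per the series title the mice were adult. Age in days, sex, brain region and whether each library is a separate animal are not in the labels, so a p-value measures the spread between these libraries, which may be technical. The trap is inherited and is not confined to a cell type.

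The libraries held 27993412 to 37538988 counts. Scn2a was at 435 ± 51.6 CPM (SD, n = 4; CPM are counts scaled to a library's total, corrected by the trimmed mean of M values) in WT and at 128 ± 15.1 CPM in HOM (SD, n = 4), and every HOM library lay below every WT library. Neuronal markers were abundant, with summed CPM of 6288 to 7492 in WT for 6 excitatory markers, but the label neuron does not describe the whole RNA. In WT, 6 astrocyte markers summed to 4117 to 4432 CPM and 6 oligodendrocyte markers to 3651 to 5483 CPM. HOM4 had 2 counts over the Y-linked genes, where the other libraries had 4452 to 5984. In bulk libraries such as these, fewer cells of a type and less RNA per cell cannot be told apart.

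The deposited counts resolved only some of the mtDNA genes. Levels are compared between genes as CPM per kilobase (kb) of exonic length. In WT, mt-Co1, the catalytic subunit of complex IV, stood at 10311 ± 743 CPM per kb (SD, n = 4), mt-Cytb of complex III at 5197 ± 395, and mt-Nd1 of complex I at 4485 ± 396. The other complex I genes followed, with mt-Nd2 at 2776 ± 316, mt-Nd5 at 2396 ± 237, mt-Nd4 at 2109 ± 143 and mt-Nd6, the gene on the opposite strand, at 1417 ± 90.5 CPM per kb. The neighbours mt-Cytb and mt-Nd1, mt-Nd2 and mt-Nd5, and mt-Nd5 and mt-Nd4, were closer than the sum of their SDs. At the other extreme, mt-Co2 was at 4.95 ± 0.427, mt-Co3 at 4.26 ± 0.318 and mt-Atp6 at 3.54 ± 0.547 CPM per kb in WT, although mt-Co2 and mt-Co3 are subunits of the same complex as mt-Co1. The genes mt-Nd3, mt-Nd4l and mt-Atp8 had 0 to 4 counts in every library and did not pass.

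The low genes lie in the stretch of mtDNA that has a near-identical nuclear copy on chromosome 1. GENCODE (release M21, build GRCm38) annotates 7 unprocessed pseudogenes there between positions 24611535 and 24616197, and blastn matched each to 1 mtDNA gene. Gm28661 matched mt-Co2, Gm10925 matched mt-Atp6, Gm28437 matched mt-Co3, Gm10222 matched mt-Nd4l and Gm28439 matched bases 1 to 876 of mt-Nd4, each at 100% identity. Gm28438 matched mt-Nd3 over 345 bases with 1 mismatch, and Gm29216 matched the last 483 bases of mt-Co1 with 1 mismatch. Copies at 98% identity or more covered 99.6% of mt-Co2 and mt-Atp6, 99.9% of mt-Co3, 99.1% of mt-Nd3, 99.0% of mt-Nd4l, 63.6% of mt-Nd4 and 31.3% of mt-Co1. The remaining mtDNA protein genes, mt-Nd1, mt-Nd2, mt-Nd5, mt-Nd6, mt-Cytb and mt-Atp8, had no annotated copy at that identity, and mt-Atp8 lies between 2 copied genes.

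The following 60-base stretches show how little separates the genes from their copies. They are written 5′ to 3′ along the gene and taken from GRCm38, and a capital marks the single base that differs between gene and copy. The stretch of mt-Nd3 is chrM:9459-9518 on the plus strand and that of Gm28438 is chr1:24613060-24613119 on the minus strand. The substitution is T3C, with positions counted from 1 at the first base of mt-Nd3.
mt-Nd3: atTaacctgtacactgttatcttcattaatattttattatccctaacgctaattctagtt
Gm28438: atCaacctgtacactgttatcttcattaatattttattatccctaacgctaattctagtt
The first 60 bases of mt-Co2, chrM:7013-7072 on the plus strand, are the same letters as chr1:24615506-24615565 on the minus strand in Gm28661, so they stand here without a capital.
mt-Co2: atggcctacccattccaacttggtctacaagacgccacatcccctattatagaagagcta
Gm28661: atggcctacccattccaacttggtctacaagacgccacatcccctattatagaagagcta
For mt-Co1 the stretch is chrM:6390-6449 on the plus strand, and for Gm29216 it is chr1:24616129-24616188 on the minus strand, with the substitution A1066T counted from the first base of mt-Co1.
mt-Co1: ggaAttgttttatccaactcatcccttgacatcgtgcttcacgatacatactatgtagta
Gm29216: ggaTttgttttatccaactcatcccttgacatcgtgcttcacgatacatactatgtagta

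Gm28438 had 469 to 992 counts per library, while mt-Nd3, which differs from it by T3C, had 0 to 4. Gm28661, the copy of mt-Co2, had 80 to 133 counts. Gm29216 had 55 to 92 counts in 7 libraries and 750 in WT1. A read from a stretch that is identical in gene and copy cannot be assigned to either, and how the authors treated reads with several positions is not given in the sources used here. The values of mt-Co2, mt-Co3, mt-Atp6, mt-Nd3 and mt-Nd4l are therefore not levels of these transcripts, and those of mt-Nd4 and mt-Co1 may rest on part of each gene.

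**Figure D1:**
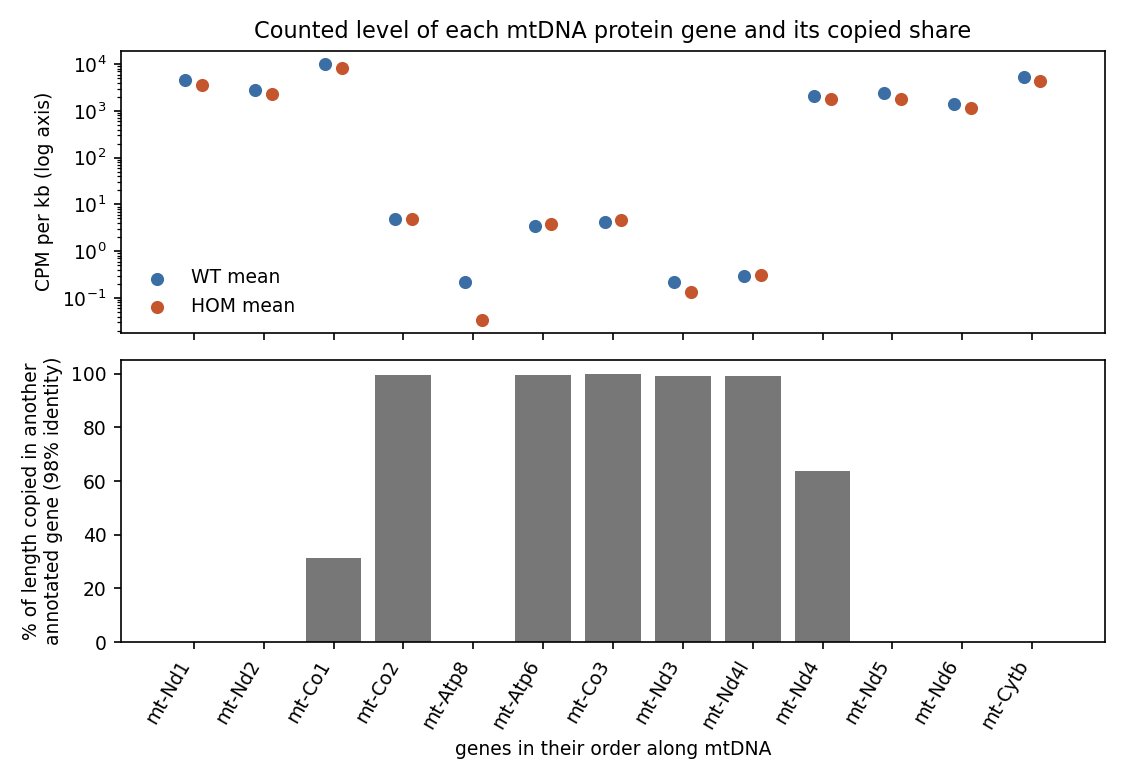
The upper panel plots the mean CPM per kb (log axis) of the 13 mtDNA protein genes in WT (blue) and HOM (orange), in their order along mtDNA, and the lower panel plots the share of each gene that is copied at 98% identity or more in another annotated gene. The 5 genes copied over 99.0% or more of their length and mt-Atp8 sit under 5 CPM per kb, and the other 7 sit between 1148 (mt-Nd6 in HOM) and 10311 (mt-Co1 in WT) CPM per kb.

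Of the 10 mtDNA genes tested, 0 passed an adjusted p of 0.05 in edgeR's quasi-likelihood test, against 2.94% of all genes lower in HOM and 2.47% higher. At an unadjusted p under 0.05, 7 of the 10 were lower in HOM and 0 higher, where the shares over all genes were 12.5% and 10.4%. DESeq2 called 5 of the 10 lower, with 1054 of all genes lower, and limma-voom 0, with 522 of all genes lower. The 7 are the genes above 500 CPM: mt-Nd1, mt-Nd2, mt-Nd4, mt-Nd5, mt-Nd6, mt-Cytb and mt-Co1. Their HOM means were 75.1% (mt-Nd5) to 85.4% (mt-Nd4) of the WT means, and their median log2 fold change was −0.30 against 0.00 over all genes tested.

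The level of mt-Co1 was 15422, 14551, 16952 and 16798 CPM in WT1 to WT4 and 11856, 15542, 12098 and 12037 CPM in HOM1 to HOM4. HOM1, HOM3 and HOM4 lay below every WT library, and HOM2 lay above WT1 and WT2, so the groups overlapped. The log2 fold change was −0.31 (SE 0.09, adjusted p = 0.0691 in edgeR).

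In complex I, mt-Nd5, which codes for a proton-pumping subunit of the membrane arm, had the largest fold change of the mtDNA genes. Its level was 4598, 3743, 4702 and 4434 CPM in WT1 to WT4 and 3075, 4356, 3014 and 2672 CPM in HOM1 to HOM4. HOM2 was again inside the WT range and the other HOM libraries were below it. The log2 fold change was −0.41 (SE 0.13, adjusted p = 0.0857 in edgeR). For mt-Nd1, the subunit at the quinone site, the levels were 4092, 3869, 4699 and 4506 CPM in WT1 to WT4 and 3344, 4075, 3094 and 3402 CPM in HOM1 to HOM4 (log2 fold change −0.30, SE 0.09, adjusted p = 0.0701 in edgeR). For mt-Nd2 they were 2944, 2403, 3127 and 3051 CPM in WT1 to WT4 and 2148, 3025, 2066 and 2118 CPM in HOM1 to HOM4 (log2 fold change −0.30, SE 0.12, adjusted p = 0.167 in edgeR). HOM2 of mt-Nd2 was above the WT mean, the only case of the 7 genes.

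The gene mt-Nd6 is the only mtDNA protein gene whose RNA is read from the other strand. Its level was 719, 717, 805 and 700 CPM in WT1 to WT4 and 534, 702, 514 and 633 CPM in HOM1 to HOM4, with a log2 fold change of −0.30 (SE 0.10, adjusted p = 0.0859 in edgeR). HOM2 was the highest HOM library, as in the genes on the other strand, but WT4 was the lowest WT library where WT2 was the lowest in the other 6 genes. Complex III has mt-Cytb, cytochrome b, as its only mtDNA subunit. It stood at 5669, 5455, 6292 and 6365 CPM in WT1 to WT4 and at 4513, 5730, 4586 and 4861 CPM in HOM1 to HOM4 (log2 fold change −0.27, SE 0.08, adjusted p = 0.0811 in edgeR). For mt-Nd4, of which 63.6% is copied, the levels were 2823, 2665, 3063 and 3071 CPM in WT1 to WT4 and 2385, 2885, 2203 and 2448 CPM in HOM1 to HOM4 (log2 fold change −0.23, SE 0.08, adjusted p = 0.133 in edgeR).

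In all 7 genes HOM1, HOM3 and HOM4 were below every WT library, HOM2 was the highest HOM library, and HOM2 was above the lowest WT library. Non-overlap of the genotypes was therefore found in 0 of 10 mtDNA genes, against 7.47% of all genes lower and 6.63% higher. Without HOM2, the HOM library that overlapped WT in all 7, all 7 passed the adjusted threshold in edgeR. Their adjusted p in edgeR ran from 0.00693 for mt-Nd5 to 0.0333 for mt-Nd4. In that fit 649 of 17600 genes were lower and 538 higher. HOM2 was singled out by its values in these same 7 genes, and leaving it out takes away their overlap. The calls of that fit are therefore no support for a difference between the genotypes. The 7 genes varied together by library, so they are not 7 separate results. Without WT2, mt-Nd1 alone passed, and 597 of 17643 genes were lower and 360 higher. In every other fit without 1 library, 0 of the mtDNA genes passed. The median of the 7 genes kept its sign under all 21 alternative settings. Beside them, mt-Co2 (−0.03, SE 0.14), mt-Co3 (0.11, SE 0.13) and mt-Atp6 (0.09, SE 0.17) had small log2 fold changes on the few reads assigned to them.

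**Figure D2:**
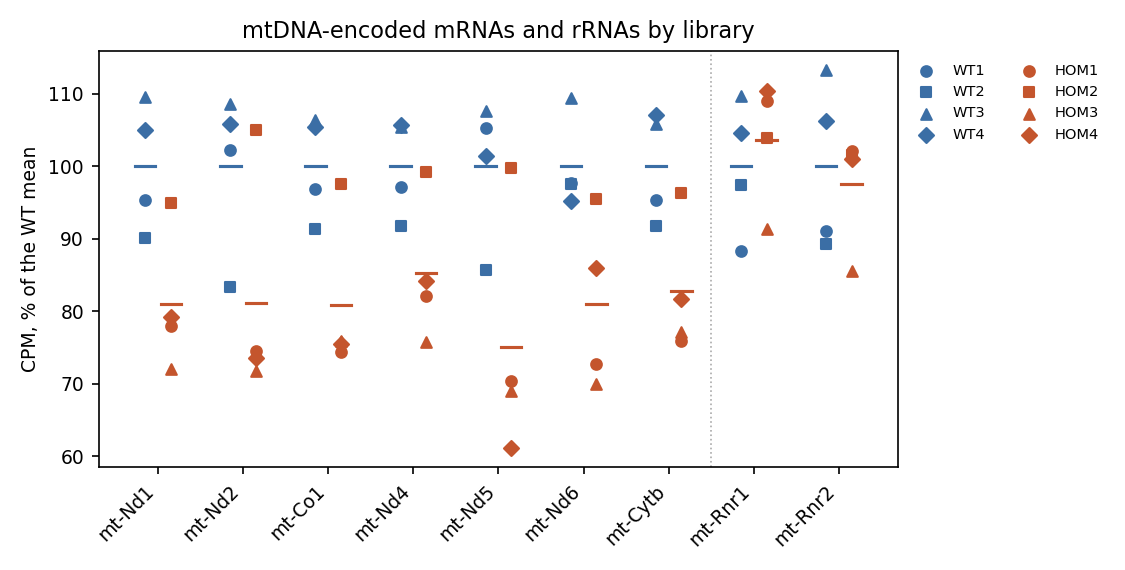
Each point is 1 library's CPM as a percentage of the gene's WT mean, for the 7 mtDNA mRNAs above 500 CPM and, right of the dotted line, both mitochondrial rRNAs; bars are group means. HOM1, HOM3 and HOM4 sit below all WT libraries in all 7 mRNAs, HOM2 sits among the WT libraries, and the rRNAs of the genotypes mix.

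Summed over the mtDNA protein genes, the level was 36277, 33413, 39649 and 38935 CPM in WT1 to WT4 and 27866, 36324, 27585 and 28181 CPM in HOM1 to HOM4. As a share of a library's counts this was 3.62% ± 0.273 in WT (SD, n = 4) and 3.07% ± 0.418 in HOM (SD, n = 4). The mitochondrial rRNAs, made from the same DNA, did not show that split: mt-Rnr1 and mt-Rnr2 together were at 5193 ± 540 CPM in WT (SD, n = 4) and 5203 ± 423 CPM in HOM (SD, n = 4). Their log2 fold changes were 0.05 (SE 0.08, adjusted p = 0.750 in edgeR) for mt-Rnr1 and −0.03 (SE 0.09, adjusted p = 0.852 in edgeR) for mt-Rnr2. The ratio of mRNA to rRNA CPM was 7.77, 6.94, 6.83 and 7.10 in WT1 to WT4 and 5.11, 6.82, 6.03 and 5.17 in HOM1 to HOM4. Every HOM library had a lower ratio than every WT library, by a small margin for HOM2. This is a ratio of counted reads. The mRNA sum is in effect that of the 7 genes above 500 CPM. The other mtDNA protein genes add almost nothing (mt-Co2 at 3.38 and mt-Atp6 at 2.41 CPM in WT), since their reads were hardly counted. The share of counts and the ratio are therefore not those of all mtDNA mRNA. In WT the mean was 2205 CPM for mt-Rnr1 and 2989 for mt-Rnr2, below the 15931 of mt-Co1. The rRNA genes were not searched for nuclear copies, and the part of library preparation in their counts was not tested.

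Markers of other RNA classes were read in the same libraries. Over all genes, edgeR called 2.94% lower in HOM and 2.47% higher (12.5% and 10.4% at an unadjusted p under 0.05). A single call in a short list is a result for that gene and not for its class. The summed CPM overlapped between the genotypes for the choroid plexus, excitatory, oligodendrocyte, endothelial and microglial markers. Of the nucleus-retained RNAs Malat1, Neat1, Meg3, Miat and Kcnq1ot1, 4 were tested and 3 rose (Malat1, Meg3 and Miat), and their summed CPM was 4761 to 5538 in WT and 6190 to 7666 in HOM, with Kcnq1ot1 at 0. HOM2, the HOM library with the highest mtDNA mRNA, was the HOM library with the lowest sum. Choroid plexus markers fell in 6 of 14 tested, with sums of 154 to 1784 CPM in WT and 20.9 to 243 CPM in HOM. Kcnj13 was at 0. With their mean as a covariate the median log2 fold change of the 7 mtDNA genes was −0.38 and 0 passed. Over all genes that fit called 28 lower and 9 higher. The covariate itself went largely with genotype (mean log2 CPM 1.15 to 4.21 in WT, −0.46 to 1.56 in HOM), so the fit cannot separate choroid plexus from genotype. Excitatory neuron markers fell in 1 of 6 (Neurod6; 5655 to 6591 CPM in HOM), inhibitory markers in 1 of 6 (Gad1; 783 to 911 CPM in WT, 681 to 737 in HOM) and pan-neuronal markers in 1 of 4 (Snap25; 4361 to 5146 CPM in WT, 3837 to 4215 in HOM, Tubb3 at 0). Astrocyte markers fell in 1 of 5 (Aqp4), with 3200 to 4043 CPM in HOM and Gfap at 0. Oligodendrocyte markers passed in 0 of 6, with 6 of 6 lower at an unadjusted p under 0.05 and 3147 to 3846 CPM in HOM. Endothelial markers fell in 1 of 5 (Flt1; 142 to 186 CPM in WT, 113 to 145 in HOM), markers of smooth muscle and pericytes fell in 1 of 6 (Myh11; 145 to 154 CPM in WT, 108 to 131 in HOM), and microglial markers rose in 1 of 5 (C1qa; 247 to 283 CPM in WT, 269 to 295 in HOM, P2ry12 at 0). HOM2 had the highest sum of the HOM libraries for the inhibitory, pan-neuronal, astrocyte, oligodendrocyte, microglial and smooth muscle and pericyte markers. The part of these classes in the mtDNA result was not tested.

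The nuclear subunit genes were centred on no change. Of 80 tested, 1 fell (Ndufs1), 0 rose and 79 did not pass in edgeR (3 lower and 0 higher with DESeq2), and 39 log2 fold changes were negative and 41 positive, with a median of 0.00. At an unadjusted p under 0.05, 6 of 80 were lower (Ndufs1, Uqcrc2, Atp5b, Cox4i2, Atp5a1 and Sdha) and 0 higher, against 12.5% and 10.4% of all genes. These counts moved with the setting. With trends of span, length and GC content removed, 14 of 80 were lower (17.5%, against 15.1% of all genes), and without WT1 9 of 80 (11.2%, against 11.1%). Without WT2, 4 of 80 were lower and 6 higher, against 13.8% and 10.6% of all genes. The genotypes did not overlap in 4 of 80, all lower, and in 0 of 80 higher, against 7.47% and 6.63% of all genes. The log2 fold change was within 0.2 of zero in 70 of 80 and within 0.25 in 76, and its SE had a median of 0.113 (0.0576 to 0.342). Summed, the nuclear genes were at 6908 ± 725 CPM in WT (SD, n = 4) and 6654 ± 624 CPM in HOM (SD, n = 4). The difference between the nuclear and the mtDNA genes was not tested.

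Complex I takes electrons from NADH. Of its 35 nuclear genes tested, 1 fell, and the median log2 fold change was 0.04, with −0.04 over the 7 core genes that carry the flavin and iron-sulfur centres, and 0.05 over the 28 accessory genes, of which 20 were positive. Ndufs1, the largest core subunit and the carrier of iron-sulfur clusters in the NADH module, stood at 60.9, 60.7, 65.3 and 67.3 CPM in WT1 to WT4 and at 46.8, 57.3, 50.8 and 45.8 CPM in HOM1 to HOM4. Every HOM library was below every WT library. The log2 fold change was −0.34 (SE 0.08, adjusted p = 0.0330 in edgeR). The gene lies at chromosome 1, 63143596 to 63176833 on the minus strand, and 70.4% of its exonic bases overlap Eef1b2, Gm24557 or Ino80dos on the other strand, so whether the counting used strand bears on its value. The call held in 11 of 21 alternative settings (adjusted p from 0.00301 to 0.257), and among the fits without 1 library only without WT2 or without HOM2. Without HOM1, the least favourable of these, the log2 fold change was −0.30 and the adjusted p was 0.124 in edgeR.

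Over the 8 libraries the accessory genes Ndufa8 and Ndufb9 had the highest mean levels per length of the nuclear complex I genes, 65.0 and 63.0 CPM per kb, and Ndufb2 had the lowest, 5.41 CPM per kb. In WT, Ndufa8 was at 63.0 ± 12.4 and Ndufb9 at 62.1 ± 8.56 CPM per kb (SD, n = 4), not separated by their SDs. Exonic length here is the union of all annotated exons, rare ones included, so a gene with long rare exons has a low value. The order depends on the length used. Per kb of gene span, Ndufa8 was at 4.28 and Ndufb10 at 25.6 CPM over the 8 libraries. The log2 fold changes were 0.09 (SE 0.13) for Ndufa8, 0.05 (SE 0.11) for Ndufb9 and 0.16 (SE 0.12) for Ndufb2. Ndufb8 and Ndufb9 share 62.0% and 62.9% of their spans with other annotated genes and are uncertain. Ndufa13, an accessory subunit whose whole span lies within Tssk6 and Yjefn3, was listed at 0 in every library.

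Complex II, succinate dehydrogenase, is also an enzyme of the citric acid cycle. Its 4 genes all had negative log2 fold changes with a median of −0.09, and 0 passed. Per length, Sdha was the highest (76.1 ± 3.37 CPM per kb in WT; SD, n = 4), Sdhb (41.2 ± 3.39) and Sdhd (39.4 ± 4.01) did not differ beyond their SDs, and Sdhc (22.8 ± 2.48) was the lowest. Sdha, the flavoprotein that oxidises succinate, stood at 294, 326, 317 and 320 CPM in WT1 to WT4 and at 283, 284, 285 and 292 CPM in HOM1 to HOM4. The groups did not overlap, but WT1 and HOM4 lay close together, and the log2 fold change of −0.14 (SE 0.06) had an adjusted p of 0.182 in edgeR. The iron-sulfur subunit Sdhb and the membrane anchors Sdhc and Sdhd had log2 fold changes of −0.08 (SE 0.07), −0.10 (SE 0.10) and −0.02 (SE 0.11).

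Complex III passes electrons from ubiquinol to cytochrome c. Of its 8 nuclear genes 0 passed, 4 were negative and 4 positive, and the median was 0.01. The core protein gene Uqcrc2 stood at 143, 148, 154 and 161 CPM in WT1 to WT4 and at 130, 138, 125 and 138 CPM in HOM1 to HOM4, without overlap (log2 fold change −0.19, SE 0.06, adjusted p = 0.0936 in edgeR). It passed in 2 of 21 alternative settings, with DESeq2 and after trends with gene length and GC content were removed (adjusted p from 0.0189 to 0.471 over the settings). The highest mean levels per length over the 8 libraries were those of Uqcr10 (78.0 CPM per kb), a small membrane subunit, and Uqcrfs1 (56.3), the Rieske iron-sulfur protein, the latter level with Uqcrc2 (55.7), with log2 fold changes of 0.08 (SE 0.14) for Uqcr10 and −0.06 (SE 0.11) for Uqcrfs1. Uqcrq, another small membrane subunit, was the lowest at 32.1 ± 5.84 CPM per kb in WT (SD, n = 4).

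Complex IV reduces oxygen and has subunit isoforms that differ by tissue. Of its 15 nuclear genes tested 0 passed, and the median was 0.04. Cox8a (406 ± 59.7 CPM per kb in WT; SD, n = 4) and Cox6a1 (328 ± 48.6; SD, n = 4), the isoforms found in most tissues, had the highest levels per length of all nuclear genes here, and they differed by less than the sum of their SDs. Their log2 fold changes were −0.06 (SE 0.11) and −0.03 (SE 0.11). The other broadly expressed isoforms stood at 123 ± 22.5 (Cox6b1), 62.9 ± 8.25 (Cox7a2) and 54.6 ± 7.36 (Cox7b) CPM per kb in WT (SD, n = 4), with log2 fold changes of 0.04 to 0.06. Ndufa4 was at 83.0 ± 10.8 and Cox7a2l at 62.8 ± 9.64 CPM per kb in WT (SD, n = 4), with log2 fold changes of 0.07 (SE 0.10) and 0.11 (SE 0.11).

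The isoforms known from muscle, testis or lung were near the floor of what was counted. Cox7a1, the heart and muscle form, was at 1.03 ± 0.188 CPM per kb in WT, and the testis forms Cox6b2 and Cox7b2 were both at 1.13, with SDs of 0.345 and 0.379 (n = 4). Cox7a1 had the largest positive log2 fold change of the nuclear genes, 0.50 (SE 0.26, adjusted p = 0.271 in edgeR), on levels of 0.460, 0.692, 0.537 and 0.507 CPM in WT1 to WT4 and 0.692, 0.633, 0.868 and 0.904 CPM in HOM1 to HOM4, and the groups overlapped. Cox4i2, the form known from lung and from oxygen-sensing cells, stood at 1.84, 1.91, 1.79 and 1.52 CPM in WT1 to WT4 and at 1.36, 0.527, 0.806 and 1.50 CPM in HOM1 to HOM4. The groups did not overlap, with WT4 and HOM4 almost level, and the log2 fold change of −0.74 (SE 0.28) had an adjusted p of 0.147 in edgeR. Cox4i2 is also known from brain pericytes, and the summed CPM of the markers of smooth muscle and pericytes is given above; the part of these cells in its values was not tested. Cox4i1, the main form of that subunit, and Cox6a2 were listed at 0 in every library. The whole span of Cox4i1 lies within Emc8 and Gm20388 and that of Cox6a2 within Itgad. Cox8c was also at 0 and overlaps no other gene. Over the matrix, 1284 of 1343 protein-coding genes lying wholly within other genes were at 0 in all libraries, against 13.4% of the 20575 others, so a 0 at these genes is not a level.

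Complex V makes ATP. Of its 18 nuclear genes tested, the second model of Atp5o and Atp5s included, 0 passed, and the median was −0.01. Its catalytic head is built from the alpha subunit Atp5a1 and the beta subunit Atp5b, which had the highest levels per length, 207 ± 13.8 and 197 ± 12.3 CPM per kb in WT (SD, n = 4), not separated by their SDs. Atp5b stood at 756, 867, 847 and 861 CPM in WT1 to WT4 and at 729, 709, 708 and 776 CPM in HOM1 to HOM4. Only WT1 fell within the HOM range, and the log2 fold change was −0.19 (SE 0.07, adjusted p = 0.108 in edgeR). Atp5a1 stood at 592, 696, 649 and 663 CPM in WT1 to WT4 and at 566, 552, 569 and 628 CPM in HOM1 to HOM4, where again only WT1 overlapped HOM (log2 fold change −0.17, SE 0.07, adjusted p = 0.168 in edgeR). The genes of the membrane c-ring, Atp5g1, Atp5g2 and Atp5g3, which code for the same mature protein, had log2 fold changes of −0.04 (SE 0.13), 0.00 (SE 0.09) and −0.01 (SE 0.15). Atp5o has a long second gene model with 24 to 77 counts, and both models overlap each other and further genes over 59.8% and 98.3% of their spans.

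**Figure D3:**
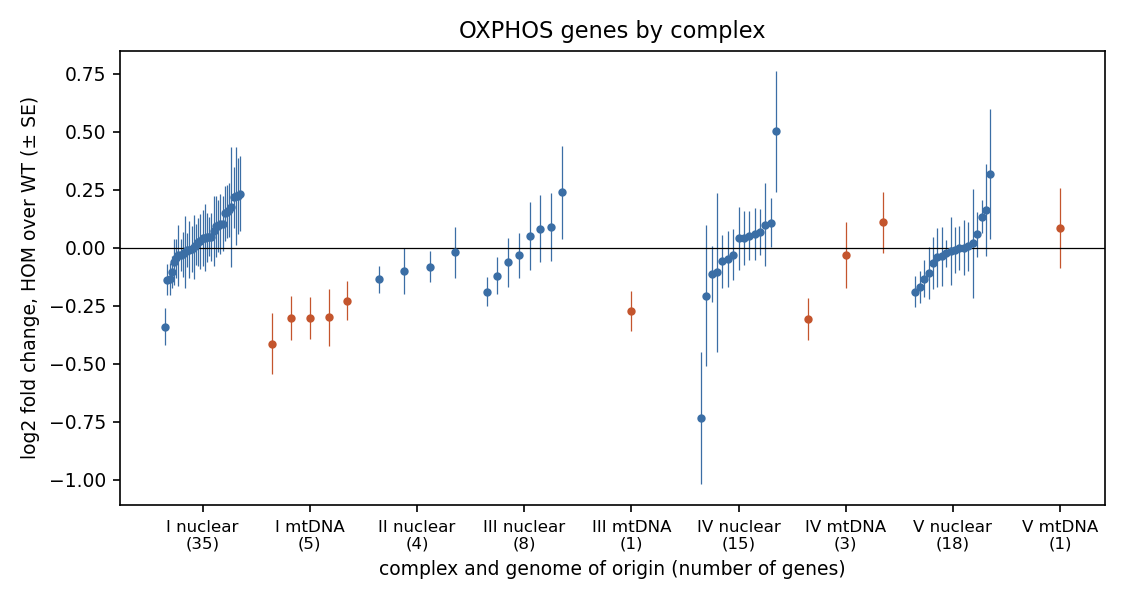
Each point is the log2 fold change of 1 gene, HOM over WT, with its SE as a bar, sorted within complex and genome of origin (nuclear blue, mtDNA orange; number of genes in brackets). The nuclear genes of each complex lie on both sides of zero except those of complex II, which are all slightly negative, and the mtDNA genes with resolved counts lie between −0.41 and −0.23.

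The nuclear genes varied together from library to library within a genotype. WT2 was the highest WT library in 67 of the 80 genes and WT1 the lowest in 73, and HOM4 was the highest HOM library in 71 and HOM2 the lowest in 49. Relative to each gene's mean log2 CPM over the 8 libraries, the median of the 80 genes was −0.25, 0.19, −0.04 and 0.05 in WT1 to WT4 and 0.05, −0.14, −0.07 and 0.22 in HOM1 to HOM4. The spread within each genotype was thus wider than the difference between the genotypes. The 7 mtDNA genes did not follow that order, with medians of 0.11, 0.01, 0.28 and 0.24 in WT1 to WT4 and −0.26, 0.11, −0.31 and −0.18 in HOM1 to HOM4. Protein-coding genes with symbols starting Rps or Rpl and a digit, or Rplp, had medians of −0.33, 0.09, −0.08 and 0.00 in WT1 to WT4 and 0.07, −0.06, 0.01 and 0.33 in HOM1 to HOM4. WT1 was lowest and HOM4 highest, as in the nuclear subunit genes. This rule is wider than that of the cytosolic ribosomal protein list read below, and it also takes in the Rps6k kinases.

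**Figure D4:**
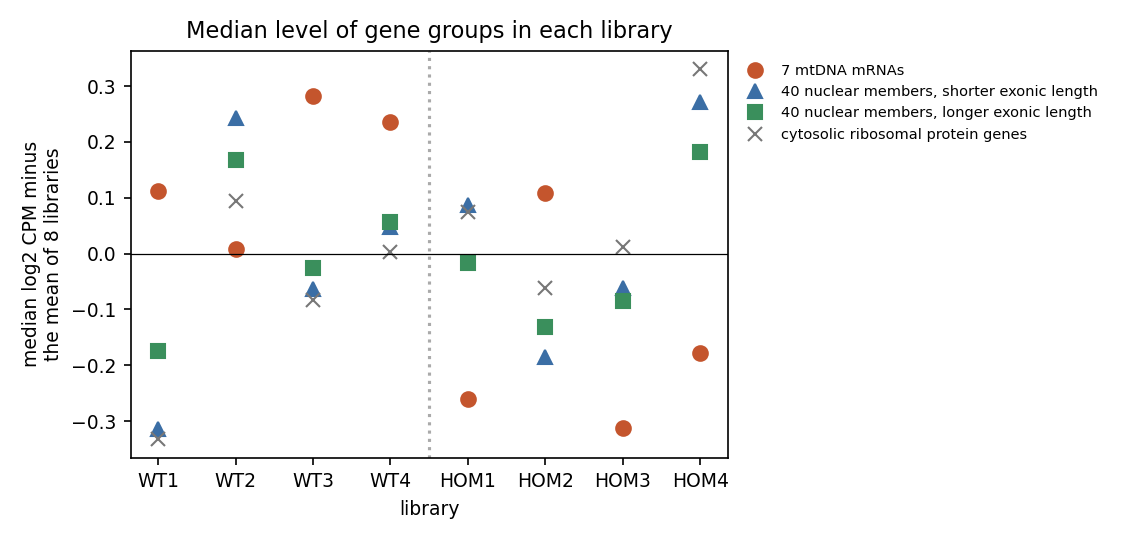
For each library the points give the median deviation of log2 CPM from each gene's mean over the 8 libraries, for the 7 mtDNA mRNAs, the nuclear genes at or under and above the median exonic length (40 each), and the genes with symbols starting Rps or Rpl and a digit, or Rplp. The last set is labelled as cytosolic ribosomal protein genes in the figure. WT1 is lowest and HOM4 highest for the nuclear subunit genes and for that set, while for the mtDNA mRNAs HOM1, HOM3 and HOM4 are lowest.

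Within the nuclear genes the fold change went with length and level. The 40 genes with an exonic length at or under 1631 bases had a median log2 fold change of 0.04, 25 of them positive, and the 40 longer genes had −0.02, 24 of them negative. With the genes sorted by CPM, the median was 0.10 over the 27 lowest, −0.01 over the next 26 and −0.03 over the 27 highest. Spearman's rho of the log2 fold change was −0.375 with exonic length and −0.472 with CPM over the 80 genes, and −0.172 with exonic length over all genes; these points share the same 8 libraries, and the values describe them only.

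Genes around the complexes were read from lists by function. Over all genes, edgeR called 2.94% lower and 2.47% higher, and at an unadjusted p under 0.05 the shares were 12.5% and 10.4%. Of 11 genes of electron carriers and ATP export 0 passed in edgeR or DESeq2, 1 was lower at an unadjusted p under 0.05, and 10 were negative (median −0.14). With trends of span, length and GC content removed, 2 were lower and 0 higher. Cycs, cytochrome c itself, had a log2 fold change of −0.19 (SE 0.07, adjusted p = 0.153 in edgeR) and Cyc1, cytochrome c1, one of −0.08 (SE 0.12, adjusted p = 0.750 in edgeR). Of 43 assembly factors 1 rose and 0 fell in edgeR (median 0.02), DESeq2 called 2 lower and 1 higher, and with trends removed 3 were lower and 1 higher. The gene that rose was Coa6, a copper chaperone of complex IV assembly, at 7.30, 8.54, 7.38 and 7.64 CPM in WT1 to WT4 and 9.99, 11.1, 9.80 and 11.6 CPM in HOM1 to HOM4, without overlap (log2 fold change 0.46, SE 0.10, adjusted p = 0.0239 in edgeR). Its call held in 2 of the 8 fits without 1 library.

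Of 29 genes that copy, transcribe and process mtDNA, 1 rose and 0 fell in edgeR, and 3 were higher and 0 lower with DESeq2 (median 0.00). With trends removed 2 were higher and 0 lower. Top1mt, the mitochondrial topoisomerase that relieves supercoils of mtDNA, stood at 15.6, 16.9, 16.7 and 16.9 CPM in WT1 to WT4 and at 20.7, 19.8, 18.9 and 22.8 CPM in HOM1 to HOM4, without overlap (log2 fold change 0.31, SE 0.08, adjusted p = 0.0446 in edgeR), and its call held in 1 of the 8 fits without 1 library. Tfam, which packages mtDNA and starts its transcription, had a log2 fold change of −0.16 (SE 0.07, adjusted p = 0.214 in edgeR). Of 15 regulators of mitochondrial biogenesis 0 passed in edgeR and 1 with DESeq2 (median −0.03), with 1 lower and 3 higher at an unadjusted p under 0.05. With trends removed 1 was lower and 2 higher. Ppargc1a, the coactivator PGC-1alpha, stood at 66.5, 54.7, 68.2 and 58.5 CPM in WT1 to WT4 and at 45.2, 54.7, 49.9 and 35.5 CPM in HOM1 to HOM4; HOM2 was level with WT2 and the other HOM libraries were below every WT library (log2 fold change −0.42, SE 0.12, adjusted p = 0.0601 in edgeR).

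The citric acid cycle and pyruvate dehydrogenase supply the electrons. Of 18 genes 3 fell and 0 rose in edgeR, against 2.94% and 2.47% of all genes, and 17 were negative (median −0.15). At an unadjusted p under 0.05, 8 were lower and 0 higher, against 12.5% and 10.4% of all genes. In 7 the genotypes did not overlap, all lower, against 7.47% of all genes. Idh3a, the catalytic subunit of the NAD-dependent isocitrate dehydrogenase, stood at 173, 175, 189 and 175 CPM in WT1 to WT4 and at 144, 148, 148 and 147 CPM in HOM1 to HOM4 (log2 fold change −0.28, SE 0.06, adjusted p = 0.0195 in edgeR). Pdha1 and Dlat, subunits of pyruvate dehydrogenase, fell with log2 fold changes of −0.31 (SE 0.07, adjusted p = 0.0240 in edgeR) and −0.22 (SE 0.06, adjusted p = 0.0465 in edgeR), HOM being below WT in every library. Of the 8 fits without 1 library, 5 kept the call of Idh3a, 3 that of Pdha1 and 0 that of Dlat. The list's median was negative in all 21 alternative settings. Its count of genes lower was 7 with DESeq2, 5 with trends removed and 0 to 2 in the fits without 1 library.

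Of 16 glycolysis genes 0 passed in edgeR, 2 were lower with DESeq2, and 16 were negative (median −0.14), with 5 at an unadjusted p under 0.05. Of 72 mitochondrial ribosomal protein genes 0 passed in edgeR and 1 was higher with DESeq2 (median 0.04), with 3 lower and 3 higher at an unadjusted p under 0.05. Of 72 cytosolic ribosomal protein genes 0 passed in edgeR or DESeq2, 72 were positive (median 0.19) and 7 were higher at an unadjusted p under 0.05. With trends of span, length and GC content removed, 5 glycolysis genes were lower and 4 cytosolic ribosomal genes higher. Of the mitochondrial ribosomal genes 1 was then lower and 1 higher. That fit called 1288 of all genes lower and 1025 higher. Scaling by library totals moved the median of all genes to 0.07, and the medians of glycolysis and of the cytosolic ribosomal genes kept their signs there, at −0.07 and 0.26, as did those of the citric acid cycle list (−0.09) and of electron carriers and ATP export (−0.07). The median of the cytosolic ribosomal genes was 0.09 without WT1, 0.10 without HOM4 and 0.11 without both libraries numbered 4, and that of glycolysis was −0.09 without HOM2.

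**Figure D5:**
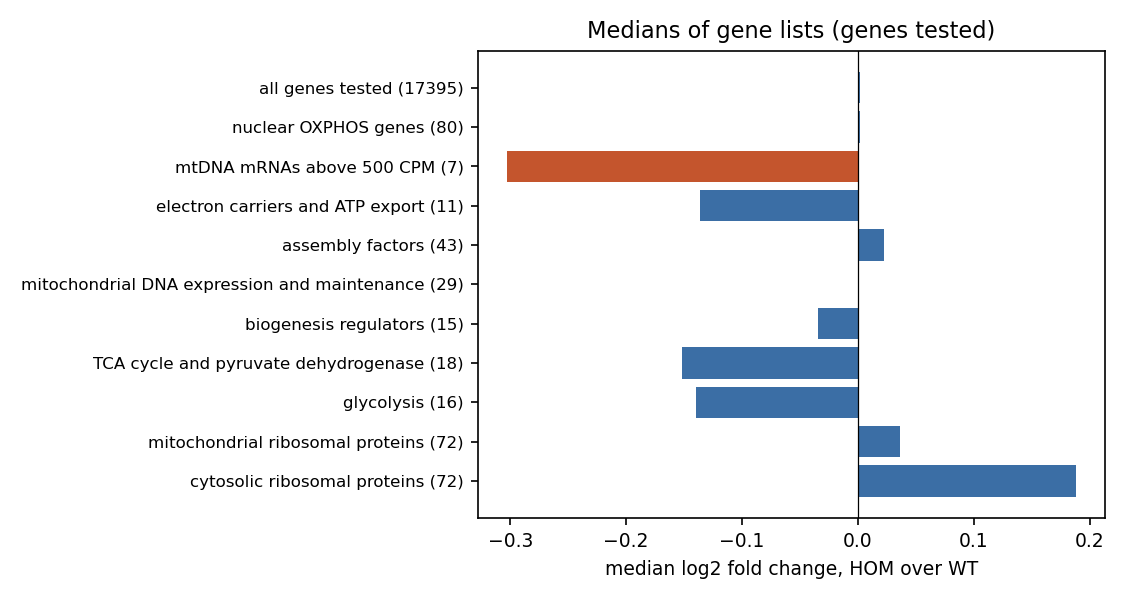
Bars give the median log2 fold change, HOM over WT, of each gene list, with the number of genes tested in brackets. The nuclear subunit genes and all genes tested sit at 0.00, the 7 mtDNA mRNAs at −0.30, the citric acid cycle list at −0.15 and the cytosolic ribosomal protein genes at 0.19.

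The promoters of the nuclear genes are known for sites of nuclear respiratory factor 1 (NRF1), of the ETS factor GABPA (NRF2) and of YY1. Promoters (250 bases before to 50 after the start, RefSeq on GRCm38.p6) were matched by symbol for 68 of the nuclear genes and searched on both strands. GCGCATGCG, read for NRF1, was found in 8 of 68 (11.8%) against 2.61% of 17491 protein-coding genes. CCGGAAGT, read for GABPA, was found in 5 (7.35%) against 5.69%, and AAGATGGCG, read for YY1, in 7 (10.3%) against 2.14%. The motifs do not contain one another, and 19 of 68 held any of them (27.9% against 9.85%). A match is a description of letters and not a bound site.

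The bases before the start of Cox6a1 and of Uqcr11 are shown with the matches in capitals. Both were chosen for their matches, so they do not stand for the other promoters. Cox6a1 had the highest level among the genes with an NRF1 match, and Uqcr11 held both an NRF1 and a GABPA match. Uqcr11 is also the complex III gene with the largest positive log2 fold change (0.24, SE 0.20, adjusted p = 0.510 in edgeR), and its values had been seen. For Cox6a1 the bases are chr5:115348959-115349208 on the minus strand, with overlapping NRF1 matches on both strands that begin 162 and 161 bases before the start.
Cox6a1: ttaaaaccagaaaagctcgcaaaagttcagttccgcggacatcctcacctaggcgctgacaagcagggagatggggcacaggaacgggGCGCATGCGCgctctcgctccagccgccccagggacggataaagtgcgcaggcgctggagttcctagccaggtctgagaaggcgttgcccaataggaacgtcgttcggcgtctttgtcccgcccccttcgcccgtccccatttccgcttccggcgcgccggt
For Uqcr11 the bases are chr10:80406822-80407071 on the minus strand, with a GABPA match 66 to 59 bases before the start. The promoter of Uqcr11 also holds an NRF1 match, which runs across the start and so lies only partly in the printed stretch, where it is not in capitals.
Uqcr11: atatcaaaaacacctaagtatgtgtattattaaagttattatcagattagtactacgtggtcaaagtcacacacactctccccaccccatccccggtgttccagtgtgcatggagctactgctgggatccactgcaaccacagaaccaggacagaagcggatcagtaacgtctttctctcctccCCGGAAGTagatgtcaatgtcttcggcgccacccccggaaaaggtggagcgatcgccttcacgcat
Cox6a1 stood at 194, 275, 217 and 234 CPM in WT1 to WT4 and at 200, 215, 218 and 268 CPM in HOM1 to HOM4. Uqcr11 stood at 23.1, 46.6, 26.2 and 32.9 CPM in WT1 to WT4 and at 40.1, 29.4, 33.9 and 48.4 CPM in HOM1 to HOM4. In both genes the genotypes overlapped over most of their range.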

How the data were processed

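The authors deposited gene counts (whole reads or fragments per Ensembl gene) in 1 matrix. The submitters' processing notes name FastQC 0.11.3, STAR, featureCounts, edgeR and build GRCm38, and the labels' protocols a stranded paired-end kit. Not given in the sources used here: the annotation release, strand setting and treatment of reads with several positions. Symbols, spans and exonic lengths came from GENCODE M21, and 37 gene IDs (0.0143% of counts) found no match. Copies were searched with blastn (BLAST 2.17.0).

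All genes passing filterByExpr were fitted with edgeR 4.0.16 (R 4.3.3; quasi-likelihood F test, TMM scaling, genotype as the only term), with Benjamini-Hochberg adjustment over 17395 genes and a threshold of 0.05. CPM are TMM-scaled. Named genes were all mtDNA protein genes, called nuclear genes, the 2 highest and the lowest per length in each complex, and isoform pairs. Uncertain genes, Ndufa4, called list genes, Ppargc1a, Tfam, Cycs and Cyc1 were also named. Uqcrc2 was chosen after its values were seen. Uqcr11 was chosen for its promoter matches, with its values known. Sdha, Atp5a1, Atp5b and Cox4i2, which the rule also names, are given per library for their small p. The members and lists were chosen with earlier results of these data known. Alternatives were other scalings, DESeq2 1.42.0, limma-voom (limma 3.58.1), other filters, a replicate block, a choroid plexus covariate, trends removed (mgcv 1.9.3) and left-out libraries. Tested on simulated data (17228 genes), the fit recovered 6 of 50 genes changed 1.25-fold, 37 of 50 changed 1.5-fold and 50 of 50 changed 2-fold, with 14 false calls. The most alike pair of libraries, WT1 and WT3, differed by more than sampling noise (chi-square per degree of freedom 7.09).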

Additional observations from a re-analysis of the deposited data

Results flagged for a closer look

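In the groups of 4 libraries of the named genes, 1 library stood far from the other 3 in 9 cases (Dixon's criterion at 95%). Chance flags about 1 in 20 groups. The 9 cases are not set against that rate, since the genes vary together by library and the cases are not separate events. HOM2 was high for mt-Nd2 (3025 CPM, the other HOM libraries 2066 to 2148) and for mt-Co1 (15542 CPM, the others 11856 to 12098). HOM4 was high for Cox8a (290.3 CPM, the others 220.3 to 229.4), Ndufa4 (138.7 CPM, the others 112.4 to 116.7) and Atp5o (73.1 CPM, the others 54.2 to 56.7). At low counts, WT4 was high for mt-Co3 (3.71 CPM, the others 3.19 to 3.26) and HOM1 for mt-Atp6 (3.07 CPM, the others 2.33 to 2.42). Among the copies on chromosome 1, Gm10222 had 20 counts in WT2 against 14 to 15 in the other WT libraries, and Gm29216 had 750 counts in WT1 against 57 to 79. The cause of these gaps was not tested.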

How the results depend on the processing

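The count of 0 nuclear and 0 mtDNA genes higher in HOM held under all 21 alternatives. Both medians stayed within 1 SD (over libraries) of the value reported, but that SD was wide, 0.174 for the nuclear and 0.135 for the mtDNA genes. The nuclear median ran from −0.07 without WT1 to 0.09 without WT2, so its sign was not stable. The median of the 10 mtDNA genes ran from −0.36 without HOM2 to −0.22 with library totals. The 1 nuclear gene lower became 0 with library totals, the replicate block, the choroid plexus covariate and without both libraries numbered 4, 3 with DESeq2 and 5 with length and GC trends removed, and 0 to 1 without 1 library. The 0 mtDNA genes lower became 5 with DESeq2, 7 with trends removed and 1 with no filter, and 0 to 7 without 1 library (7 without HOM2, 1 without WT2); limma-voom gave 0. The median level of the nuclear genes in WT, 37.0 CPM per kb of exonic length, was 7.88 per kb of gene span. The order of genes moved too. Per kb of gene span and over the 8 libraries, Atp5b (110 CPM) stood above Cox8a (100) and Cox6a1 (68.2). Over all genes, the 511 lower and 429 higher calls became 1054 and 819 with DESeq2, 1288 and 1025 with trends removed, 195 and 169 with the replicate block, and 28 and 9 with the choroid plexus covariate. The replicate numbers did not pair the libraries (correlations of same-numbered deviations 0.05, −0.20, −0.01 and 0.03), and the block result stands here only. On simulated counts with 4 libraries a group, the fit recovered 12% of genes changed 1.25-fold, with 14 false calls over all fold sizes; these are genes of all kinds, and depth itself was not varied. Scaling by upper quartile gave 355 lower and 539 higher calls and library totals 286 and 844. The cause of these shifts was not tested.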
